A study of Homo sapiens with 2 samples.

Results

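The genes examined here encode 10 proteins of the cytoplasmic intermediate filaments, namely VIM, DES, NES, INA, NEFM, NEFH, KRT8, KRT10, KRT18 and KRT19. They were taken by name from the 57736 genes of the deposited tables, and each name matched 1 gene identifier. Poly(A)+ RNA was sequenced in 50 bp reads from untreated wild-type HEK293T cells grown to 80% confluency. The data comprised 1 group with 2 replicates of this line, which was derived from human embryonic kidney and carries the SV40 large T antigen. No label says that the replicates came from separate cultures, so the spread between them may be technical, and the series holds no second condition. Replicate 1 had 10593491 estimated counts in all and replicate 2 had 10104118. Absence of reads leaves room for up to 3 counts, equal to 0.283 CPM (counts scaled by the library total) in the first library and 0.297 CPM in the second, counting error only.

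Intermediate filaments are ropes of coiled-coil proteins that give cells mechanical strength, and which genes are used depends on the cell type. Type I and type II keratins assemble only as pairs, with KRT8 and KRT18 as the usual pair of simple epithelia and KRT10 and KRT1 as a pair of the upper epidermis. Type III proteins such as vimentin (VIM, of mesenchymal and cultured cells) and desmin (DES, of muscle) can form filaments on their own. Type IV proteins include nestin (NES, of neural progenitors), alpha-internexin (INA) and the neurofilament proteins NEFM and NEFH of neurons.

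VIM was by far the most abundant of these genes. KRT18 followed, then the neuronal gene INA, and the keratin partner KRT8 stood well below KRT18. Of the 10 genes, 7 were detected, that is, had a TPM (a level per transcript length, with an equal sum in every library) of at least 1 in both replicates. They were VIM, KRT18, INA, NEFM, KRT8, KRT10 and NES. This share of 70% lies beside 63.7% of 19391 protein-coding genes and 27.7% of all genes, so it was close to the protein-coding background. NEFH, DES and KRT19 were not detected.

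**Figure D1:**
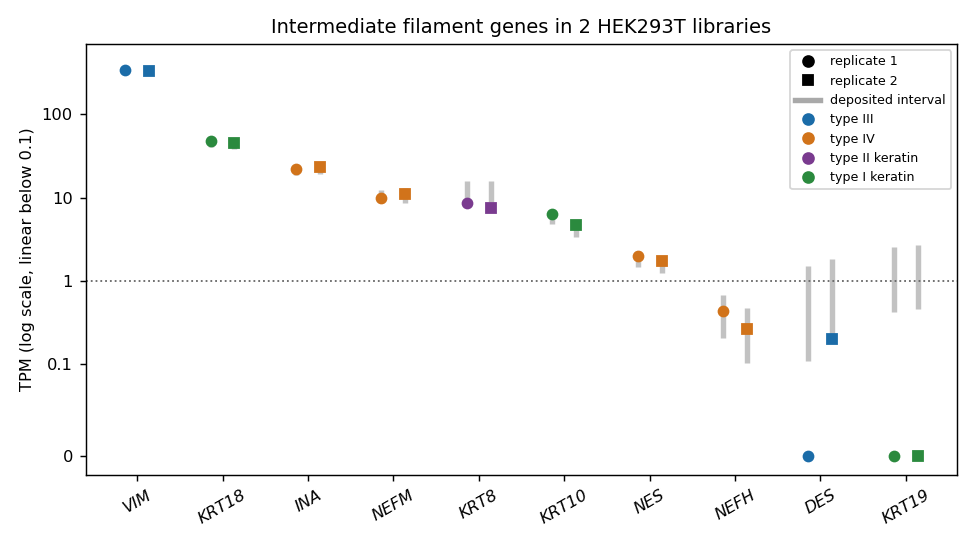
TPM of the 10 genes (vertical axis, log scale that is linear below 0.1) in replicate 1 (circles) and replicate 2 (squares), coloured by filament type, with the interval deposited for each TPM as a grey bar and the detection threshold as a dotted line. VIM sits above 331 in both replicates, VIM lies above its bar and KRT8, DES and KRT19 below theirs, and the KRT19 points are at 0.

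VIM (ENSG00000026025, type III, chromosome 10 from 17270240 to 17279592 on GRCh37, plus strand) had 4617 counts in replicate 1 and 4300 in replicate 2 (estimated by RSEM, which shares out reads that fit several genes). Its TPM was 344 and 332, or 338 ± 8.81 (SD, n = 2). It ranked 267 among the protein-coding genes by mean TPM, and 97.8% of the detected protein-coding genes lay below it. VIM alone held 76.1% ± 0.209 (SD, n = 2) of the TPM of all 65 cytoplasmic intermediate filament genes that could be read. VIM TPM lay above the interval deposited with it in both replicates (310 to 331 and 298 to 318). Posterior mean TPM, a second estimate in the same tables, put this share at 69.4%. An antisense gene, VIM-AS1, and the lncRNA ENSG00000234961 overlap its exons on the opposite strand. They had 15 and 8 counts (VIM-AS1) and 0 and 2.82 counts (ENSG00000234961), so nearly all reads of the locus were assigned to VIM. The sources do not state whether strand was used in counting, and reads of overlapping antisense genes may not be separable.

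DES, the muscle member of the same type, had 0 counts in replicate 1 and 1 count in replicate 2 (ENSG00000175084, chromosome 2 from 220283099 to 220291457, plus strand). A total of 3 counts would be a TPM of 0.404 in replicate 1 and 0.587 in replicate 2. The value of 0.20 in replicate 2 came from that 1 count, and the limit, which is for 0 counts, does not apply to it. DES was thus under the detection threshold in both replicates, while the interval deposited with it ran up to 1.51 and 1.82. Of 7 other muscle markers, 2 were detected near the threshold, MYH3 (an embryonic myosin, mean TPM 1.56) and ACTA1 (skeletal actin, mean TPM 1.165). The regulator MYOD1 had 5 and 7 counts, and 3 of the 7, MYOG and MYF5 among them, had 0 counts in both replicates.

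Among the 5 type IV genes that could be read, of 6 listed, INA was the highest. INA (ENSG00000148798, chromosome 10 from 105036895 to 105050103, plus strand) had 518 counts in replicate 1 and 525 in replicate 2, all of them whole. Its TPM was 21.8 and 23.0 (22.4 ± 0.813, SD, n = 2), and 51.8% of the detected protein-coding genes lay below it. INA was thus near the middle of the detected genes. By the GENCODE coordinates, NT5C2 overlaps 452 bp of the exons of INA on the opposite strand, and it had 429.33 and 406.71 counts. In the transcripts compared, however, none of 3202 stretches of 50 nt in INA, the length of a read, occurred in another gene on either strand. The overlap with NT5C2 was thus not seen among those transcripts.

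NEFM, the medium neurofilament protein (ENSG00000104722, chromosome 8 from 24771271 to 24776611, plus strand), had 217 counts in replicate 1 and 197 in replicate 2. Its TPM was 9.93 and 11.1 (10.5 ± 0.820, SD, n = 2). The order of the replicates depended on the scale: TPM was higher in replicate 2, and CPM, which ignores length, was higher in replicate 1 (20.5 against 19.5). The mean transcript length estimated for NEFM was 2973 nt in replicate 1 and 2521 nt in replicate 2. The lncRNA ENSG00000272163 overlaps 960 bp of its exons on the opposite strand and had 2.25 and 0 counts.

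NES, a marker of neural progenitors, was barely above the threshold. NES (ENSG00000132688, chromosome 1 from 156638555 to 156647199, minus strand) had 81 counts in replicate 1 and 68 in replicate 2, and its TPM was 1.97 and 1.72 (1.845 ± 0.177, SD, n = 2). Of the detected protein-coding genes, 4.33% lay below it. The neural progenitor genes SOX2 and PAX6 were higher, with TPM values of 5.615 ± 0.163 and 45.5 ± 3.85 (SD, n = 2).

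NEFH, the heavy neurofilament protein (ENSG00000100285, chromosome 22 from 29876207 to 29887379, plus strand), had 12 counts in replicate 1 and 7 in replicate 2. Its TPM of 0.43 and 0.26 was under the detection threshold but above the limit of 3 counts (0.108 and 0.112). On TPM, INA was 50.7 times as high as NEFH in replicate 1 and 88.3 times in replicate 2. The type IV members were therefore used unequally, with INA and NEFM well above NES and NEFH in both replicates.

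KRT18, the type I keratin of simple epithelia (ENSG00000111057, chromosome 12 from 53342655 to 53346690, plus strand), had 499.67 counts in replicate 1 and 464.26 in replicate 2. Its TPM was 47.2 and 45.2 (46.195 ± 1.45, SD, n = 2), and 73.4% of the detected protein-coding genes lay below it. VIM exceeded KRT18 on TPM by 7.29-fold in replicate 1 and 7.35-fold in replicate 2.

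KRT8, its type II partner and neighbour on the opposite strand (ENSG00000170421, chromosome 12 from 53290971 to 53343738), had 91.1 counts in replicate 1 and 88.1 in replicate 2. Its TPM was 8.57 and 7.56 (8.065 ± 0.714, SD, n = 2). As for NEFM, the estimated mean length differed (1474 nt in replicate 1 and 1670 nt in replicate 2), and CPM was 8.60 and 8.72, higher in replicate 2 where TPM was lower. The exons of KRT8 and KRT18 share 525 bp.

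The mRNA levels of the pair were not equal. TPM of KRT18 over that of KRT8 was 5.51 in replicate 1 and 5.97 in replicate 2. On posterior mean TPM it was 3.53 (3.61 and 3.46), since KRT8 was at 12.3 in both replicates on that scale. The posterior mean of KRT8 was 1.44 and 1.63 times its TPM, against a median of 1.01 in both replicates over all detected genes. Its TPM of 8.57 and 7.56 lay below the interval deposited with it (9.16 to 15.6 in replicate 1 and 8.93 to 15.8 in replicate 2). KRT8 was not alone in this: DES and KRT19 lay below their intervals in both replicates, VIM above its interval in both and INA above in replicate 2. The excess of KRT18 held on each scale, and its size was uncertain.

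KRT10, a keratin of the upper epidermis (ENSG00000186395, chromosome 17 from 38974369 to 38978866, minus strand), had 99 counts in replicate 1 and 69 in replicate 2. Its TPM was 6.39 and 4.63 (5.51 ± 1.24, SD, n = 2), the widest relative spread among the detected members. KRT1, the usual partner of KRT10, had 0 counts in both replicates. Other markers of stratified epidermis (TP63, IVL, KRT5, KRT14 and FLG) were also at 0 counts in both, while KRT10 itself was detected. The lncRNA KRT10-AS1 overlaps 61 bp of its exons on the opposite strand and had 89 and 62 counts.

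KRT19, the smallest keratin and a partner of KRT8 in simple epithelia (ENSG00000171345, chromosome 17 from 39679869 to 39684560, minus strand), had 0 counts in both replicates. This allows a TPM of up to 0.578 in replicate 1 and 0.600 in replicate 2. Posterior mean TPM was nevertheless 1.44 and 1.49, so on that scale a gene without reads passed the threshold of 1.

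The order of mean TPM was VIM, KRT18, INA, NEFM, KRT8, KRT10, NES, NEFH, DES and KRT19. The values of the replicates overlapped between neighbours only for DES and KRT19. On mean TPM, the smallest steps were those from NEFM to KRT8 (1.16-fold in replicate 1 and 1.47-fold in replicate 2) and from KRT8 to KRT10 (1.34-fold and 1.63-fold), and in replicate 2 alone NEFH was 1.3-fold above DES. The deposited intervals overlapped for 3 pairs of neighbours, which were NEFM with KRT8, NEFH with DES and DES with KRT19. On posterior mean TPM, KRT8 (12.3) came before NEFM (10.6), and the last 3 were in the reverse order, KRT19 (1.465), DES (0.82) and NEFH (0.35). The order of NEFM against KRT8, and that of NEFH, DES and KRT19, was therefore not settled. VIM, KRT18 and INA came first, in that order, on both scales.

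**Figure D2:**
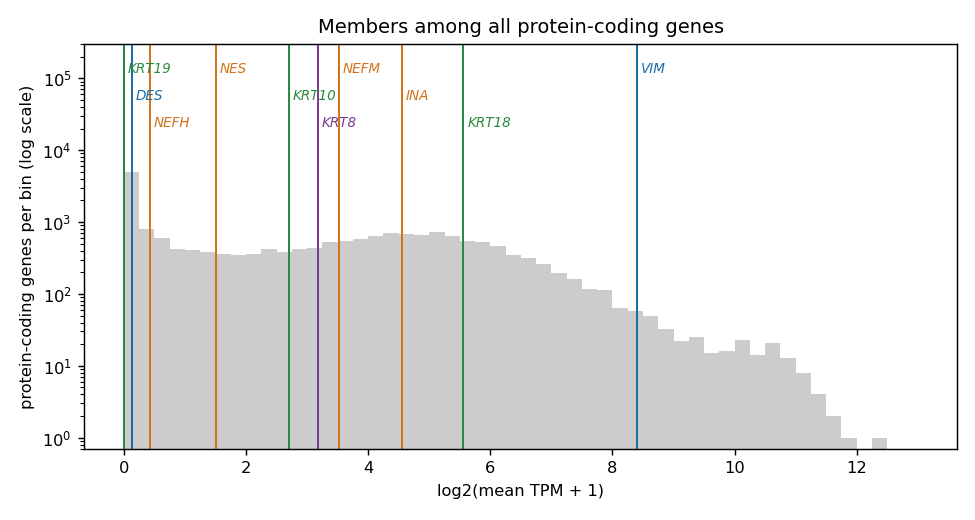
Histogram of log2(mean TPM + 1) over the 19391 protein-coding genes (vertical axis, genes per bin, log scale), with a line for each of the 10 members coloured by filament type. VIM lies in the upper tail, INA near the middle of the detected genes, and KRT19, DES and NEFH in the first bins.

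Rounded counts of the replicates were set against each other in a two-sided exact binomial test, which compares these libraries and not conditions. Of the 8 members with at least 10 summed counts, 0 differed at an adjusted p of 0.05, and 0 at an unadjusted p under 0.05. Over all 17920 genes tested, 696 (3.88%) differed after Benjamini-Hochberg adjustment, 1.74% with the higher value in replicate 1, and 13.3% had an unadjusted p under 0.05. The smallest p among the members belonged to KRT10, at a log2 ratio of -0.44 for replicate 2 against replicate 1 (exact binomial p = 0.0536, adjusted p = 0.387). The ratios of VIM, KRT18, INA, NEFM and KRT8 lay between -0.06 and 0.10 on the log2 scale.

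To see how much of the family is covered by these genes, 66 known cytoplasmic intermediate filament genes were listed. By name, 65 were found and 1 type IV gene was not, so shares of the family leave that gene out. The 10 members held 97.6% of the TPM of these 65 genes in replicate 1 and 97.4% in replicate 2. Of the other 55 genes, 4 were detected and 35 had 0 counts in both replicates. SYNM (synemin, which links filaments to other structures) had a TPM of 2.90 ± 0.198, BFSP1 (a lens filament protein) 2.49 ± 0.240, PRPH (peripherin, of peripheral neurons) 1.655 ± 0.361 and KRT32 (a hair keratin) 1.195 ± 0.0495 (SD, n = 2). The last of these rested on 14.7 and 15 counts.

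By type, the type III genes held 76.7% ± 0.157 of the TPM of the family, type I keratins 12.3% ± 0.266, type IV genes 8.56% ± 0.456 and type II keratins 1.93% ± 0.00845 (SD, n = 2). Type I keratins summed to a TPM of 54.5 ± 2.45 and type II keratins to 8.585 ± 0.163 (SD, n = 2). Their ratio, type II over type I, was 0.155 in replicate 1 and 0.160 in replicate 2. It was 0.419 on posterior mean TPM, so type II mRNA was below type I on both scales. When the TPM of the pseudogene copies was added to their genes, the ratio was 0.286. That sum includes reads assigned to the copies and is not a level of keratin mRNA alone. KRT8 was the only detected gene of 26 type II keratins, and KRT7, another keratin of simple epithelia, had 0 counts in both replicates.

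**Figure D3:**
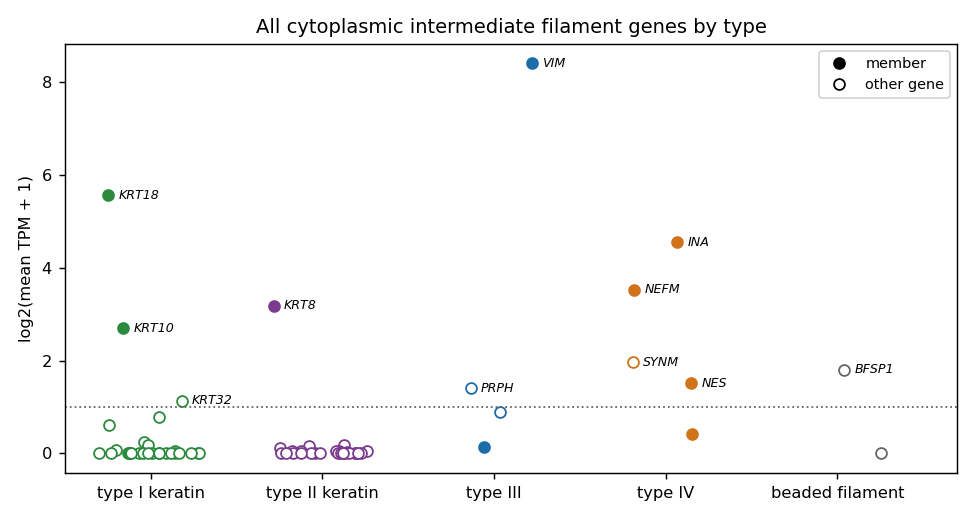
Mean level of the 65 cytoplasmic intermediate filament genes as log2(mean TPM + 1), by type, with members filled and other genes open. The dotted line marks a mean TPM of 1, and most keratins lie at 0.

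KRT8 and KRT18 are known for the many copies that reverse transcription of their mRNA left in the genome. Pseudogenes named after a member numbered 125, of which 51 were copies of KRT8, 67 of KRT18, 5 of KRT19 and 1 each of NEFM and NEFH. Copies were detected in 4 cases, or 3.20%, against 7.55% of 14205 annotated pseudogenes. With 39 copies holding counts and 86 at 0 in both replicates, most of the copies had no counts at this depth.

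Summed over the family of KRT8, the copies held about as many reads as the gene. The 51 copies had 97.7 counts in replicate 1 and 87.2 in replicate 2, beside 91.1 and 88.1 at KRT8. On TPM, 44.9% ± 0.459 (SD, n = 2) lay at KRT8 itself. The 67 copies of KRT18 had 94.0 and 84.9 counts, and 82.3% ± 0.641 (SD, n = 2) of the TPM lay at KRT18. With the copies added to each gene, TPM of KRT18 over KRT8 was 3.04 in replicate 1 and 3.22 in replicate 2, in place of 5.51 and 5.97. These sums include reads assigned to the copies and are not mRNA levels of the genes alone.

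**Figure D4:**
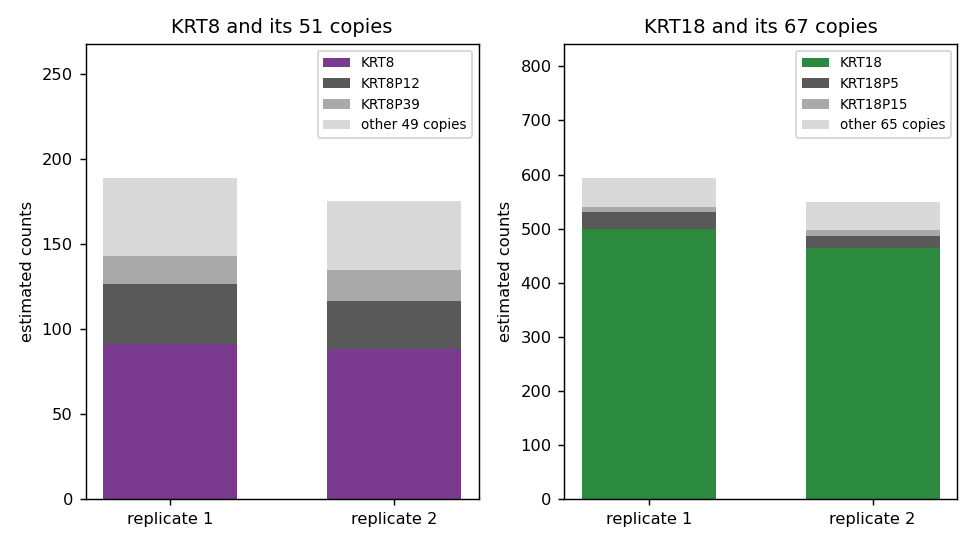
Estimated counts in each replicate at KRT8 with its 51 copies (left) and at KRT18 with its 67 copies (right), as stacked bars with the 2 copies of highest count shown apart. About as many reads lie at the copies as at KRT8 itself, and the copies of KRT18 hold 94.0 and 84.9 counts beside 499.67 and 464.26 at KRT18.

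The 4 detected copies were led by KRT8P12 for KRT8 and by KRT18P5 for KRT18. KRT8P12 (chromosome 3 from 160283235 to 160287036) had 35.2 and 28.3 counts, a TPM of 3.735 ± 0.658 (SD, n = 2). KRT8P39 had 16.6 and 18.2 counts and KRT18P5 (chromosome 22 from 20837102 to 20838392) 30.94 and 22.05 counts. KRT18P15 followed with 10.05 and 10.86 counts.

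The stretches below show letters by which reads of a gene and its copies can be told apart, except that 1 of the 67 copies of KRT18 carries the KRT18 stretch without a difference. Each is 60 nt of coding sequence of the gene on GRCh37, read 5′ to 3′ in the direction of the gene, with the matching stretch of the 4 copies of KRT18, and the 1 copy of KRT8, that held the most counts. It was chosen as the stretch at which the 4 copies of highest count differ most from the gene, with at most 6 mismatches in any copy, and capitals mark letters that differ from the gene.
KRT18 (chr12:53346053-53346112, plus strand, exon 6): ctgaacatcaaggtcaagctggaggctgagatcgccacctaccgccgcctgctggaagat
KRT18P5 (chr22:20837237-20837296, minus strand): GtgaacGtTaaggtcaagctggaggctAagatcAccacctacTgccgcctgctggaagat
KRT18P15 (chr3:32301528-32301587, plus strand): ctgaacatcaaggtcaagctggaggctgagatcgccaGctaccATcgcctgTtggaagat
KRT18P62 (chr22:19246135-19246194, plus strand): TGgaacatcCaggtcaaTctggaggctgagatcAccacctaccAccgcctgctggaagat
KRT18P57 (chr1:112191043-112191102, minus strand): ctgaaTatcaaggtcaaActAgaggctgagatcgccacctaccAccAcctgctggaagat
KRT8 (chr12:53291274-53291333, minus strand, exon 9): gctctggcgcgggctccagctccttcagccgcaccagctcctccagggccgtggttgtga
KRT8P12 (chr3:160286913-160286972, plus strand): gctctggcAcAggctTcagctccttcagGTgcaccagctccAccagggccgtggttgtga

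Other stretches cannot be told apart by a read. The window of KRT18 below is the one of 50 nt, the length of a read, within a coding exon that was found letter for letter in the most copies, 5 of 67.
KRT18 (chr12:53343167-53343216, plus strand, exon 1): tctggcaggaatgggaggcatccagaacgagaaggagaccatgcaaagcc

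Over whole transcripts, 20.8% of 5320 windows of 50 nt in KRT8 were also found in another gene (on either strand), 12.7% in its copies and 8.72% elsewhere, mostly in the overlapping KRT18. In KRT18 26.8% of 3204 windows were shared, 481 windows with copies and 477 with other genes, mainly KRT8. NEFM (24.6%) and VIM (21.5%) shared windows almost only with antisense genes at the same locus. In KRT10, KRT19, DES and NEFH at most 2.59% were shared, and in NES and INA none of 5519 and 3202. The posterior SD of the counts, which describes how uncertain the sharing of reads was, was 2.99% of the count for KRT8 in replicate 1, 0.664% for KRT18 and 0.0793% for VIM, and 0 for INA, NES and KRT10.

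Of the copies with the most reads, the detected ones shared at most 3.30% of their 50-nt windows with their gene, and KRT8P33, which was not detected, shared more. In KRT8P12, 0.200% of the 50-nt windows were present in KRT8 transcripts, and in KRT18P5 0.0805% were present in KRT18 transcripts. The share was 0.939% in KRT8P39 and 3.30% in KRT18P15. It was 9.32% in KRT8P33, which held 12.92 and 7.47 counts. KRT8P3 had the highest share, 28.2%, and held 0 counts (posterior SD 1.08) in replicate 1 and 4.13 (posterior SD 1.46) in replicate 2. The median share was 0.442% in the 17 copies of KRT8 with counts and 1.09% in the 34 without. For KRT18 it was 0.103% in 20 copies with counts and 0.576% in 47 without.

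**Figure D5:**
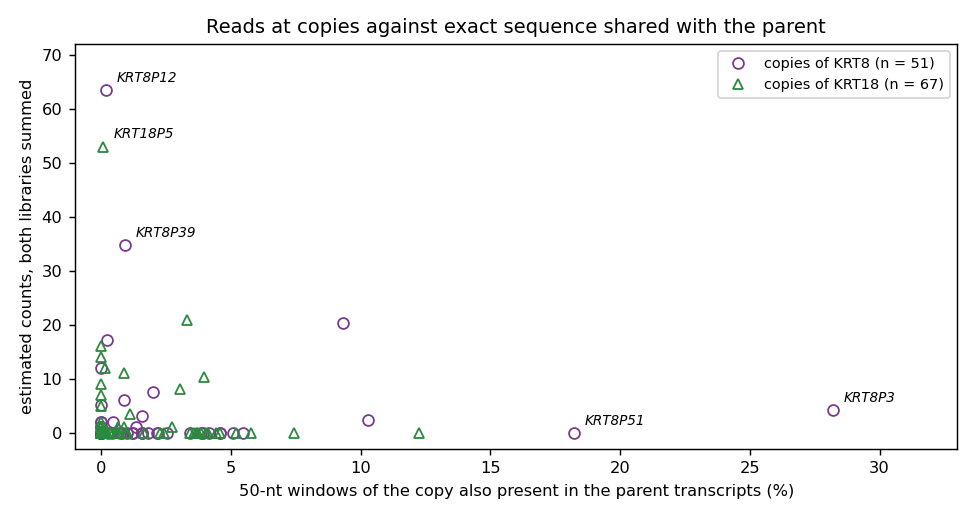
For each of the 51 copies of KRT8 (circles) and 67 of KRT18 (triangles), the share of its 50-nt windows that also occur in transcripts of the gene (horizontal axis, %) and its estimated counts in both libraries summed (vertical axis). The copies with over 30 counts lie at a share under 1%, and KRT8P3 at 28.2% has few counts.

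The location of the copies was looked up after their values were seen. Of the 37 copies of KRT8 and KRT18 with counts, 19 (51.4%) lay within the span of a detected gene, on either strand, against 5 of 81 (6.17%) without counts. Of 12 copies with at least 10 summed counts, 9 did. KRT18P5 lies in KLHL22, a gene with a mean TPM of 28.965, and KRT8P39 in NUP107, a nuclear pore gene at 101. Both are on the strand of that gene, while KRT18P62 in CLTCL1 and KRT18P57 in RAP1A are on the opposite strand. KRT8P12 lies within no other listed gene. The part of the host genes in these reads was not tested.

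Genes whose products bind, modify or maintain the filaments were listed as well. Their detected counts are to be read beside the 63.7% of protein-coding genes detected. Of 6 cytolinkers, which tie filaments to other cell structures, 5 had a row and 3 were detected, MACF1 (TPM 76.8 ± 5.37), DST (44.7 ± 2.67) and PLEC (20.015 ± 1.75, SD, n = 2). Of 12 desmosome genes, whose junctions anchor keratin filaments, 7 were detected, led by DSG2 (63.4 ± 1.17), DSP (47.8 ± 0.0283) and PKP4 (43.9 ± 1.57, SD, n = 2). PKP1, DSG1, DSG3 and DSC1 had 0 counts in both replicates, while DSC3, like these a gene of stratified epithelia, had a TPM of 20.97 and 20.76. All 7 kinases that phosphorylate filament proteins were detected, with PLK1 (181 ± 5.76) and AURKB (135 ± 5.47) highest. Of 5 genes for turnover and chaperones 4 were detected, with HSPB1 at 180.03 ± 4.47 and DNAJB6 at 177 ± 9.37 (SD, n = 2), and CRYAB had 2 and 1 counts. Among the genes of these lists, 1 differed between the libraries, JUP (plakoglobin, 753 and 600 counts, exact binomial test, adjusted p = 0.0435, higher in replicate 1), beside 3.88% of all genes in either direction and 1.74% in that direction.

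The label gives kidney as the tissue. Of 11 kidney markers 2 were detected (LRP2 and PAX2), and UMOD, AQP2 and CDH16 had 0 counts in both replicates. Of 6 markers of simple epithelium, where KRT8 and KRT18 are typical, 2 were detected at low level, CDH1 at a TPM of 2.72 ± 0.212 and EPCAM at 1.26 ± 0.297 (SD, n = 2). Of 7 neuronal markers 3 were detected, UCHL1 at 253 ± 3.36, TUBB3 at 6.575 ± 0.134 and SYN1 at 1.075 ± 0.0636 (SD, n = 2), and STMN2 had 0 counts. Of 6 fibroblast markers only COL1A1 was detected (8.885 ± 1.94, SD, n = 2). None of 6 markers of stratified epidermis had counts. The numbers detected in these lists, and in that of muscle, are to be read beside the 63.7% of protein-coding genes detected.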

How the data were processed

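RNA-Seq was deposited for 2 replicates of HEK293T cells, with 1 further table of a single value per gene for the whole series. Per the labels, the authors trimmed reads with Trimmomatic 0.36, aligned them with STAR 2.6.1c to GRCh37 and quantified genes with RSEM 1.3.1. The study's methods name featureCounts and Ensembl release 87 instead, but the columns are those of RSEM. Estimated counts as deposited by the authors share out reads that fit several genes. TPM and FPKM values were deposited by the authors, and so were posterior mean estimates. Posterior SDs and TPM interval bounds are scores deposited by the authors, the level of the interval not being given in the sources used here.

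GENCODE release 44, as mapped to GRCh37, gave symbols and coordinates and matched 96.1% of gene identifiers. Windows of 50 nt were compared, on either strand, over the 93.1% of listed transcripts with a GENCODE sequence. Estimated counts were rounded for an exact two-sided binomial test (scipy 1.17.1) against TMM library sizes (edgeR 4.0.16, R 4.3.3), adjusted by Benjamini-Hochberg over genes with at least 10 summed counts. Log2 ratios used 0.5 added counts. The test was tested on simulated data.

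Members and lists were chosen with earlier results of these data known. Genes named beside the members were the highest of each list, up to 8 filament genes, 4 copies per member and 3 associates, those at 0 counts, and genes overlapping a member. CRYAB, JUP, DSC3, KRT7, KRT8P3, the marker genes and the host genes were named after their values were seen. Some items are not reported here.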

Additional observations from a re-analysis of the deposited data

How the results depend on the processing

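No paired analysis was possible because there is 1 group only. The number of members detected was 7 with either replicate left out, and 5 to 8 under the other thresholds and units. On posterior mean TPM it was 8, with KRT19 passing at 0 counts. The number of members differing between the libraries was 0 under each library size, filter and count tried. With whole estimated counts only, 4 members could be tested. The share of VIM in the family was 72.2% in estimated counts, 69.4% on posterior mean TPM and 72.8% with the copies added, and 75.9 to 76.2% without either replicate. The ratio of type II to type I keratins was 0.419 on posterior mean TPM and 0.286 with the copies added, and 0.155 to 0.160 without either replicate. The share of the KRT8 family at KRT8 was 49.3% in estimated counts and 44.6 to 45.2% without either replicate. That of KRT18 was 84.4% in estimated counts, 69.3% on posterior mean TPM and 81.8 to 82.7% without either replicate. Neighbouring members overlapped in 3 pairs by the deposited intervals and in 0 on posterior mean TPM in its own order, against 1 pair on TPM. For none of these shifts was the cause tested. In windows of 25 nt, a length added after the data were seen, 36.0% of KRT8 and 41.6% of KRT18 were shared with other genes. Depth limits the statements on DES, KRT19 and NEFH, each with at most 19 summed counts.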

Other observations

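A further table of the authors holds 1 value per gene for the whole series. Its estimated counts for the members differed from the sum of the replicates by at most 0.14 counts, at VIM (8917 in that table), and by 0.01 at KRT8 (179.24). The authors' TPM there was 339 for VIM, 46.3 for KRT18 and 8.16 for KRT8.

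KRT19 also has copies, and KRT19P2 held 1 count in replicate 2, more than KRT19 itself. NEFHP1, the copy of NEFH, held 1 count in replicate 2, and NEFMP1 held none.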
